A study of Mus musculus with 16 samples.

Results

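The 37 genes described here drive or mark cell division, from the entry into S phase to the separation of daughter cells, and they were taken by symbol from the 29730 genes of a count table of tibialis anterior RNA. The tibialis anterior is a muscle at the front of the lower leg. It was sampled in 16 male mice aged 7 weeks, of the strain named C57BL/6N in the labels, with 4 mice in each group. WT_PBS mice were wild type and received PBS, a saline buffer, and WT_ASO mice were wild type and received ASO1, an antisense oligonucleotide against Dnm2. KO_PBS mice carried the Bin1mck-/- genotype and received PBS, and KO_ASO mice carried the same genotype and received ASO1. Bin1 encodes a membrane-bending protein whose loss causes a recessive form of centronuclear myopathy, and Dnm2 encodes the membrane-severing GTPase dynamin 2. Nothing in the labels tells which part of Bin1 was deleted, what the letters mck stand for, or the dose and schedule of ASO1.

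Most cells of an adult muscle do not divide. The nuclei of muscle fibres have left the cell cycle for good, and satellite cells, the stem cells of muscle, rest until damage calls them into division, so that transcripts of the cell cycle are scarce in a healthy muscle and come from few cells. In a dividing cell the cyclin E genes and E2F factors open S phase, the MCM helicase and PCNA copy the DNA with deoxynucleotides made by ribonucleotide reductase, and a second wave of genes for cyclins A and B, the mitotic kinases, the kinetochore and the spindle rises towards mitosis. In resting cells the DREAM complex, which holds an Rb-like protein and a repressor E2F, keeps both waves silent. RNA from a whole muscle pools all its cells, so that fewer cells of a type and less RNA per cell cannot be told apart.

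Total counts per sample ran from 27591900 to 40862854. Bin1 measured 462.4 to 619.6 CPM (reads of a gene relative to all reads of its library, with library sizes scaled by TMM) in the 8 wild-type samples and 31.7 to 47.7 CPM in the 8 knockout samples, and Dnm2 measured 20.7 to 31.1 CPM in the 8 samples given ASO1 and 50.2 to 67.6 CPM in the other 8, so both targeted genes matched the labels. The 5 defining genes of mature muscle fibre summed to 112300 to 153500 CPM in WT_PBS and 79940 to 103400 CPM in KO_PBS. Their sum was 118900 to 177300 CPM in WT_ASO and 102600 to 121200 CPM in KO_ASO.

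A few libraries stood apart for the cell cycle genes. Of the 36 genes that passed the filter on low counts, KO_ASO replicate 4 held the highest value of its group in 29, against 32.7% of all 14960 genes tested. KO_PBS replicate 1 held the highest value of its group in 29 of the 36 as well, against 25.7% of all genes, and WT_ASO replicate 4 did so in 22, against 26.2%. KO_ASO replicate 4 also had the highest sums of its group for several marker lists, with 354.6 CPM beside 230.4 to 263.6 CPM for fibro-adipogenic progenitors, 46.2 CPM beside 18.6 to 35.8 CPM for Schwann cells and 60.3 CPM beside 40.4 to 48.4 CPM for macrophages. It had the highest level of the 16 samples for erythroid genes, which mark red cells and their precursors: the 7 erythroid genes summed to 424.4 CPM there and to 23.4, 51.8 and 39.3 CPM in KO_ASO replicates 1, 2 and 3. WT_ASO replicate 3 had the next highest erythroid sum, 256.2 CPM, and it held the highest value of its group in 4 of the 36 cell cycle genes. The part of these markers in the levels of cell cycle genes was not tested. The main edgeR results that rest on KO_ASO replicate 4 are given with and without it. DESeq2, a second method, was run on all samples only.

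The genes fall into 22 of G2 and M phase and 15 of S phase. The G2 and M phase genes summed to 21.9, 24.9, 16.5 and 19.2 CPM in WT_PBS replicates 1 to 4 and to 51.5, 32.9, 28.1 and 28.7 CPM in KO_PBS, and the groups did not overlap. In WT_ASO the sum was 19.4, 23.4, 25.4 and 27.5 CPM, within or just above the range of WT_PBS. In KO_ASO it was 22.6, 23.4 and 23.8 CPM in replicates 1 to 3, below every KO_PBS sample, and 59.5 CPM in replicate 4, above every other sample. The S phase genes summed to 87.3 to 89.5 CPM in WT_PBS, 87.8 to 93.4 CPM in WT_ASO and 78.2 to 83.9 CPM in KO_PBS. In KO_ASO they summed to 78.4 to 89.2 CPM in replicates 1 to 3 and 99.9 CPM in replicate 4. On the TMM scale the S phase sum was lower in every KO_PBS sample than in any WT_PBS sample. This order rests on the TMM factors, 1.06 to 1.09 in KO_PBS and 0.937 to 0.999 in WT_PBS, and with library totals alone the groups overlap. Rrm1, at 30.3 CPM or more in each sample, made up a large share of the S phase sum. Over all 37 genes the sum was 108.9 ± 4.12 CPM in WT_PBS, 114.0 ± 2.44 CPM in WT_ASO, 116.4 ± 12.9 CPM in KO_PBS and 119.4 ± 27.0 CPM in KO_ASO (SD, n = 4 each), and these ranges overlapped. Without KO_ASO replicate 4 the last value was 106.1 ± 5.15 CPM (SD, n = 3).

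**Figure D1:**
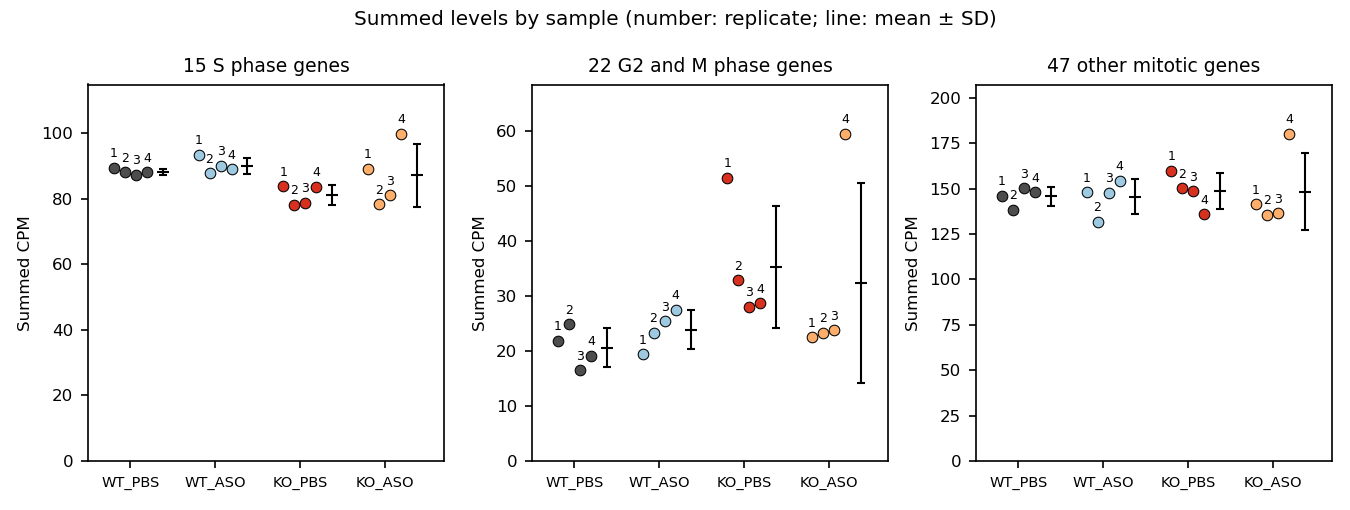
Summed CPM (vertical axis, linear, from 0) of the 15 S phase genes, the 22 G2 and M phase genes and 47 other mitotic genes in each of the 16 samples, by group. Points are samples with their replicate number, and the line beside each group is the mean ± SD (n = 4). For the G2 and M phase genes all 4 KO_PBS samples lie at 28.1 CPM or above, KO_ASO replicates 1 to 3 lie between 22.6 and 23.8, and KO_ASO replicate 4 lies at 59.5.

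**Figure D2:**
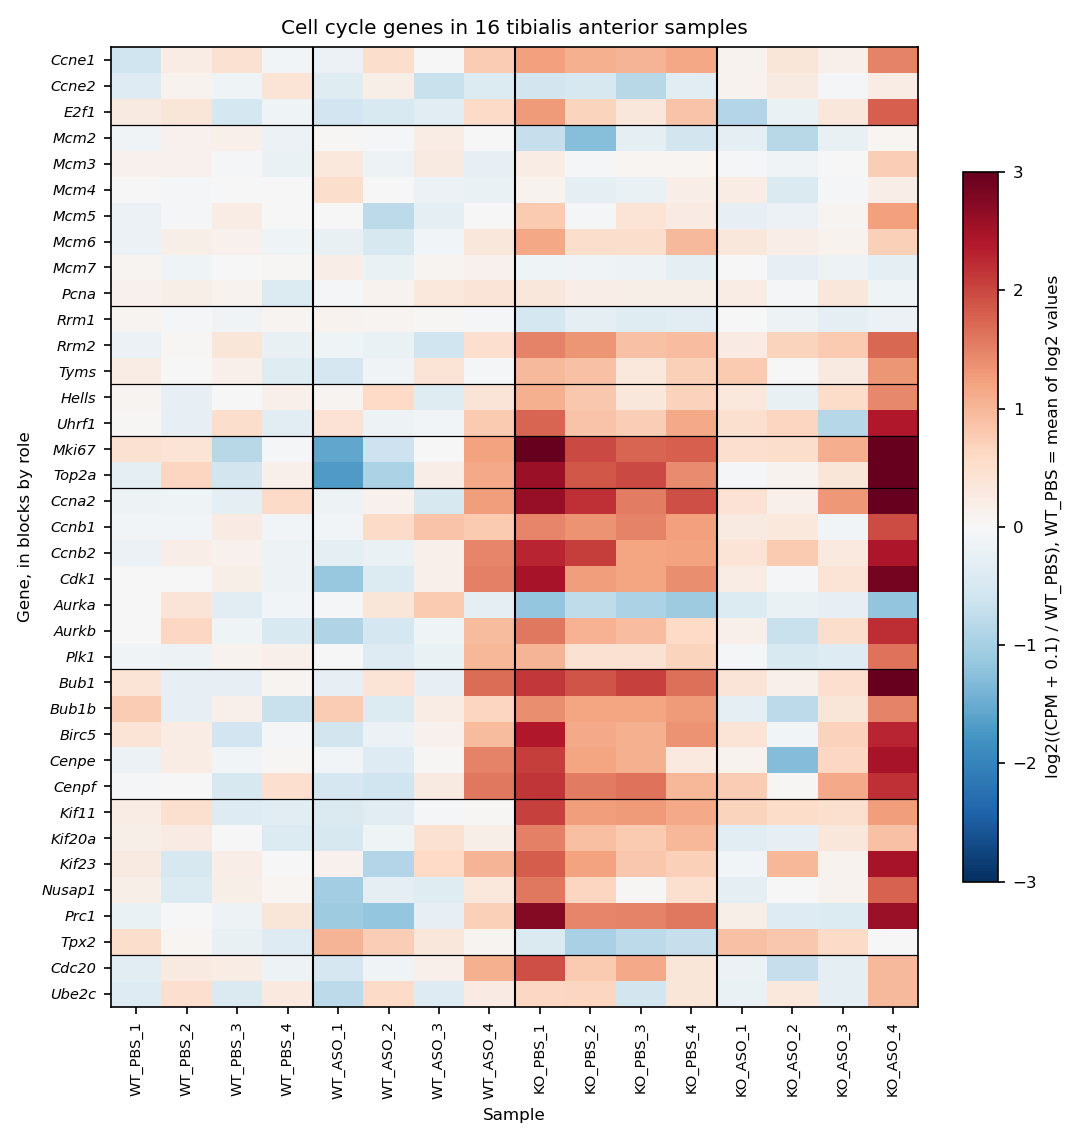
Level of each of the 37 genes (rows, in blocks by role from G1/S regulators at the top to partners of the anaphase-promoting complex at the bottom) in each of the 16 samples (columns). Colour is log2 of the sample's CPM plus 0.1 over the mean of the same log2 values in WT_PBS, with the scale ended at 3 on either side. KO_PBS columns and KO_ASO replicate 4 are red over most mitotic rows, and the rows of Mcm2, Rrm1, Aurka and Tpx2 are pale to mid blue in KO_PBS.

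KO_PBS was compared with WT_PBS to ask what the loss of Bin1 changed. Of the 36 genes tested, 10 were differentially expressed genes (DEGs, edgeR adjusted P value under 0.05) that rose, where 7.43% of all genes tested did so, and 3 fell, where 5.12% did so. Those that rose were Kif11, Mcm6, Rrm2, Kif20a, Ccnb2, Ccna2, Ccne1, Birc5, Cenpf and Mki67. Those that fell were Rrm1, Aurka and Mcm2. The median log2 fold change (log2FC) of the 36 genes was 1.19, beside -0.01 over all genes, and 29 of the 36 values were above 0. In 23 genes every KO_PBS sample was above every WT_PBS sample (10.5% of all genes) and in 4 genes every KO_PBS sample was below (9.85% of all genes). The count of DEGs that rose depended on single libraries: it was 1 without KO_PBS replicate 1 (4.49% of all genes), with 2 that fell (2.07%), and the median log2FC was then 0.96. It was 2 without WT_PBS replicate 4 (4.42% of all genes). It was 17 without KO_ASO replicate 4 (8.11% of all genes), with 4 that fell (5.95%). That sample belongs to neither group but enters the shared estimate of the spread. The additional genes that rose without it were Bub1, Prc1, Top2a, Cdk1, Bub1b, Uhrf1 and Cdc20, and the additional gene that fell was Tpx2. In a fit of the compared groups alone 20 of 35 tested genes rose (8.52% of all genes) and 4 fell (5.78%). Without the samples numbered 4 of both ASO1 groups 19 rose (8.67%) and 4 fell (6.75%). With all other samples kept it was 4 to 5 without WT_PBS replicates 1, 2 or 3 or KO_PBS replicate 2 (5.16% to 6.63% of all genes). Kif11, Rrm1 and Aurka were DEGs in each of the 16 fits that left out 1 sample.

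On the TMM scale the mature fibre sum was lower in every KO_PBS sample than in any WT_PBS sample, and it was lowest in KO_PBS replicate 1. Among the cell types sampled with the muscle, macrophage markers moved in the same comparison. All 6 macrophage markers were DEGs that rose in KO_PBS, and their summed level was 37.9 to 62.6 CPM in WT_PBS and 166.1, 98.8, 99.4 and 299.0 CPM in KO_PBS replicates 1 to 4. KO_PBS replicate 4 had the highest macrophage sum of the 16 samples. KO_PBS replicate 1, with the highest cell cycle levels of its group, had the next highest. In KO_ASO the macrophage sum was 40.4 to 60.3 CPM, and it was 60.3 CPM in replicate 4. Of the 4 satellite cell markers 3 fell in KO_PBS: Pax7, Calcr and Myf5, with a summed level of 6.29 to 8.27 CPM in WT_PBS and 2.56 to 3.85 CPM in KO_PBS. Of 6 genes of differentiating myoblasts 5 were tested, and Myog and Myh8 rose, with a sum of 28.9 to 32.4 CPM in WT_PBS and 50.5 to 71.6 CPM in KO_PBS. Of 4 markers of fibro-adipogenic progenitors Pdgfra and Dcn rose, with a sum of 240.0 to 287.3 CPM in WT_PBS and 300.2 to 410.7 CPM in KO_PBS. Markers of T cells and B cells summed to at most 0.662 and 0.322 CPM in any sample. The 3 neutrophil markers summed to 0.0251 to 0.410 CPM in WT_PBS and to 1.82, 0.482, 0.317 and 5.23 CPM in KO_PBS replicates 1 to 4, so that 3 of the 4 KO_PBS samples lay above every WT_PBS sample, and S100a9, the only one that passed the filter, had a log2FC of 3.42 ± 1.28 (adjusted P = 0.0945). Ly6g, the most specific of the 3, had 1 read over all 16 samples. S100a8 passed the filter and rose in the fit without KO_ASO replicate 4. None of the tested endothelial, Schwann cell, erythroid or adipocyte markers was a DEG in this comparison. Which of these cells held the cell cycle transcripts, and the part of their numbers in the differences, was not tested.

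Stretches of the genes around the start of transcription are shown for the 3 DEGs that rose with the smallest P values among those with a window, Kif11, Mcm6 and Rrm2, and for the 3 that fell, since letters through which cell cycle genes are known to be regulated lie there. Each is the RefSeq window of 250 bases before to 50 bases after the start (GRCm38.p6), written 5′ to 3′ on the strand of the gene. They lie at chr19:37376132-37376431 (Kif11, plus strand), chr1:128359656-128359955 (Mcm6, minus strand), chr12:24708004-24708303 (Rrm2, plus strand), chr7:102441445-102441744 (Rrm1, plus strand), chr2:172370521-172370820 (Aurka, minus strand) and chr6:88898731-88899030 (Mcm2, minus strand). Capitals mark 3 motifs on either strand: TTTGAA or TTCGAA, a CHR element bound by the DREAM complex, CCAAT, the box bound by NF-Y, and TTCCCGC or TTGGCGC, a site of E2F factors.
Kif11: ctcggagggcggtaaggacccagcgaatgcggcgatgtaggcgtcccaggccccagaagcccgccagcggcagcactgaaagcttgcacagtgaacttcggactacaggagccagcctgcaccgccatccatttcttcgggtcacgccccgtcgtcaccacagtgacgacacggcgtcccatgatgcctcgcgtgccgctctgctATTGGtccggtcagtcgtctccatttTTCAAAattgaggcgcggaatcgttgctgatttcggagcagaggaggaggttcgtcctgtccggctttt
Mcm6: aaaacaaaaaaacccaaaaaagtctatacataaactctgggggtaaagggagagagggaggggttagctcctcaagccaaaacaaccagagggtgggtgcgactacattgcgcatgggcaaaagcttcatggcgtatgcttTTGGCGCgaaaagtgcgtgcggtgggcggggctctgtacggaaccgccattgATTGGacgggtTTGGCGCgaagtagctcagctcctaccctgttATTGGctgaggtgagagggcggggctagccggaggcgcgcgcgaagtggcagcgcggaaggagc
Rrm2: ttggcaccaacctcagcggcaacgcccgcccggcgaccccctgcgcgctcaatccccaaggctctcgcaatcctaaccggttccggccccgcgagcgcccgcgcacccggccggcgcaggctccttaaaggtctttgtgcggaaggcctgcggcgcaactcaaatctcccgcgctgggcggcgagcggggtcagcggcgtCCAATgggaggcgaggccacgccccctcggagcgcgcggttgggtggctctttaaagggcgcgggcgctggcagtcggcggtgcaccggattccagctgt
Rrm1: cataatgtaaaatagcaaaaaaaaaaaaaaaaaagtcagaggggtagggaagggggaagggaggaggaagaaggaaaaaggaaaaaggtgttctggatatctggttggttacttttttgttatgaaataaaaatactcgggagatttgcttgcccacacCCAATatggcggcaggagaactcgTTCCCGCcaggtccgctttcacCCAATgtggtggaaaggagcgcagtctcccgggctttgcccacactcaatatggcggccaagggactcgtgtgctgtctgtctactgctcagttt
Aurka: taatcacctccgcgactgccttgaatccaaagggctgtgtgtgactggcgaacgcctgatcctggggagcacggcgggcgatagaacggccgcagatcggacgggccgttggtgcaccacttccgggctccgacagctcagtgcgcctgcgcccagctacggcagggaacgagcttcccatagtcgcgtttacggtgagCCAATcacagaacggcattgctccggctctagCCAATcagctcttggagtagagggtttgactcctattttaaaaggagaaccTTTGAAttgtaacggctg
Mcm2: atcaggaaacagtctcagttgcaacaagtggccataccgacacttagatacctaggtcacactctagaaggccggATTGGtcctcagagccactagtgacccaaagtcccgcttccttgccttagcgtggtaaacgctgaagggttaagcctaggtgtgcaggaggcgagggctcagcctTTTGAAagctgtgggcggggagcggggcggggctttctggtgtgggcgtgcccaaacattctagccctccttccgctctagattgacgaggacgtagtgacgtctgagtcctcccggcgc

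The window of Kif11 held a CHR motif that began 19 bases before the start and a CCAAT box that began 45 bases before it, and that of Mcm6 held 2 CCAAT boxes and 2 E2F motifs. Rrm2 held 1 CCAAT box. Of the 3 genes that fell, Mcm2 and Aurka held a CHR motif, Rrm1 held an E2F motif and all 3 held a CCAAT box, so the motifs stood in genes of both directions. A window was found for 31 of the 37 genes, and 16 of these held a CHR motif (51.6%, beside 14.6% of 13352 promoters of protein-coding genes of the same length). A CCAAT box stood in 25 of the 31 (80.6%, beside 37.8%) and an E2F motif in 10 of the 31 (32.3%, beside 10.9%). All 16 windows with a CHR motif also held a CCAAT box, a pair found in 6.03% of all promoters. Of the 10 DEGs that rose 8 had a window, of which 4 held a CHR motif and 6 a CCAAT box. A match is a string of letters and not a site shown to be bound.

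**Figure D3:**
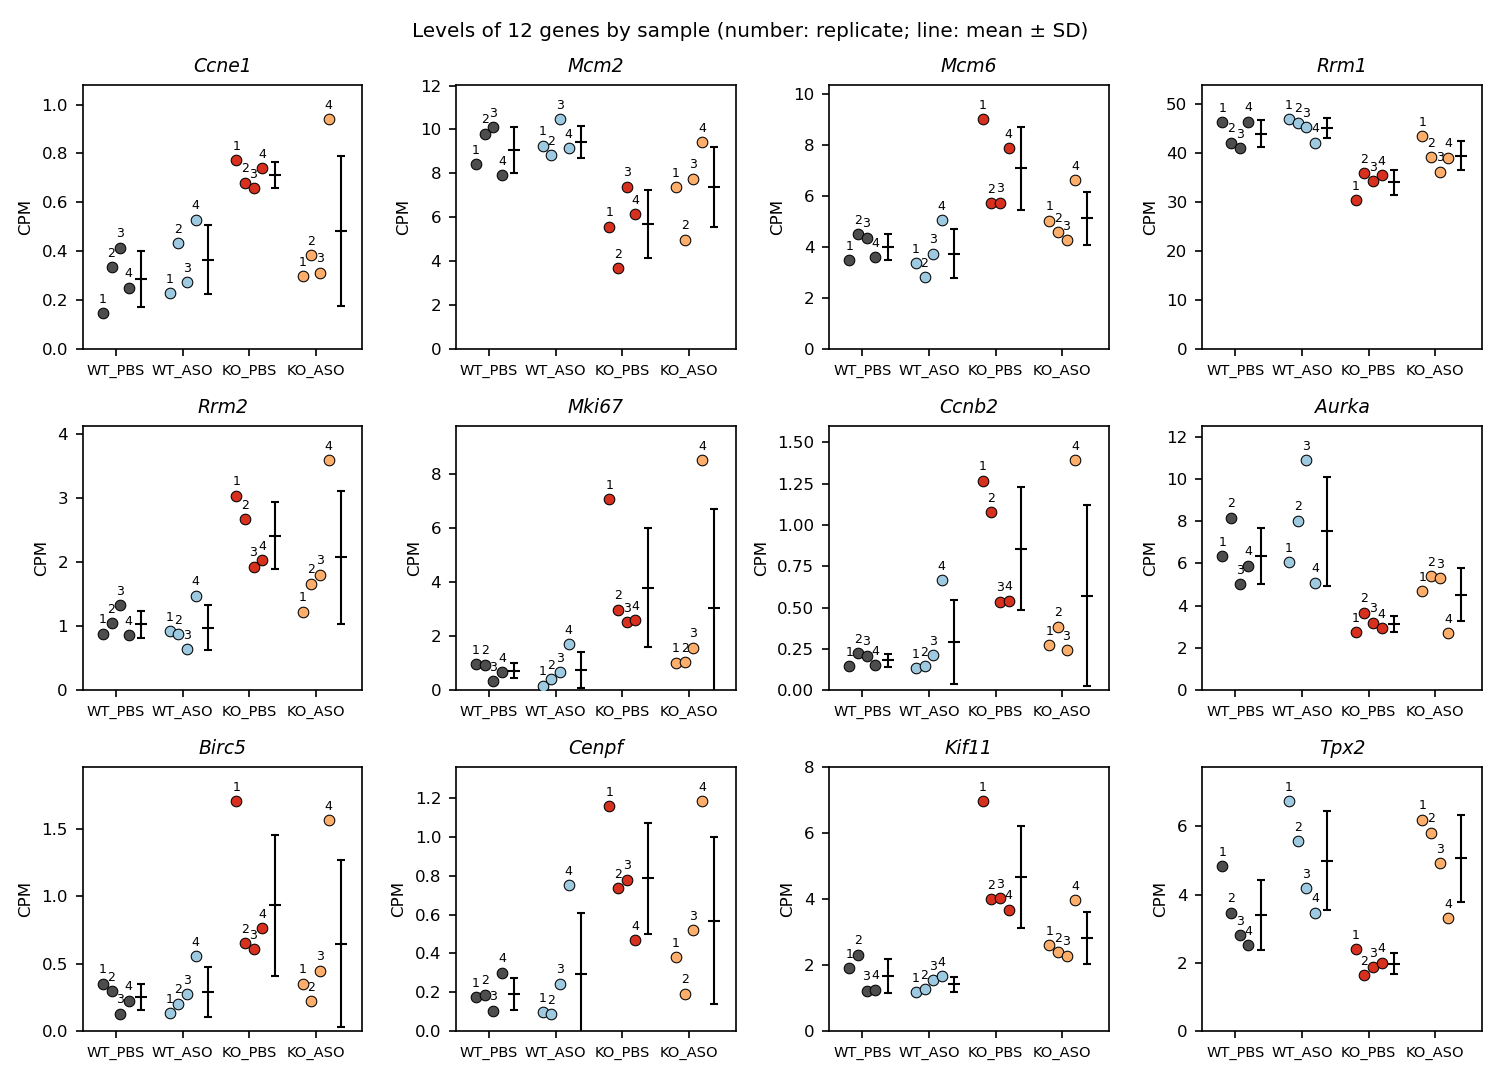
CPM (vertical axes, linear, from 0, one scale per gene) of 12 genes in each of the 16 samples. Points are samples with their replicate number, and the line beside each group is the mean ± SD (n = 4), ended at 0 where it would pass below. Mcm2, Rrm1, Aurka and Tpx2 are lower in every KO_PBS sample than in any WT_PBS sample, the other 8 are higher in every KO_PBS sample, and KO_ASO replicate 4 is the highest KO_ASO sample in all but Rrm1, Aurka and Tpx2.

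Of the G1/S regulators, Ccne1, the cyclin E that partners CDK2 at the entry into S phase, measured 0.146, 0.335, 0.415 and 0.251 CPM in WT_PBS replicates 1 to 4, from 5, 9, 16 and 10 reads. It measured 0.772, 0.680, 0.658 and 0.740 CPM in KO_PBS, above every WT_PBS sample. Its log2FC was 1.30 ± 0.39 (SE, adjusted P = 0.0391). In WT_ASO it measured 0.229, 0.434, 0.273 and 0.528 CPM, and in KO_ASO 0.299, 0.383, 0.311 and 0.941 CPM, so that KO_ASO replicates 1 to 3 lay within the range of WT_PBS and replicate 4 above all other samples. Its call was lost without any 1 of the 4 KO_PBS samples or of WT_PBS replicates 1, 2 and 4, with adjusted P values of 0.0600 to 0.106, and without the filter on low counts (adjusted P = 0.0548). Ccne2, the second cyclin E, had a negative value, from 3.25 to 5.69 CPM in WT_PBS to 2.37 to 3.38 CPM in KO_PBS (log2FC -0.59 ± 0.19, adjusted P = 0.0592), and was not a DEG by edgeR but was by DESeq2 (adjusted P = 0.0309). Ccne2 overlaps Ints8 on the opposite strand. E2f1, the activator E2F, measured 0.415 to 0.857 CPM in WT_PBS and 0.8289 to 1.68 CPM in KO_PBS (log2FC 0.88 ± 0.50, adjusted P = 0.279).

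The helicase genes split. Mcm2 and Mcm6 encode neighbouring subunits of the 6-membered ring that unwinds DNA, and they were DEGs in opposite directions. Mcm2 measured 8.42, 9.80, 10.09 and 7.92 CPM in WT_PBS and 5.57, 3.68, 7.39 and 6.14 CPM in KO_PBS, with no overlap (log2FC -0.67 ± 0.19, adjusted P = 0.0318). Mcm6 measured 3.48, 4.51, 4.36 and 3.61 CPM in WT_PBS and 9.02, 5.72, 5.73 and 7.87 CPM in KO_PBS, with no overlap (log2FC 0.83 ± 0.20, adjusted P = 0.0122). In WT_ASO Mcm2 measured 9.26, 8.82, 10.5 and 9.14 CPM and Mcm6 3.37, 2.81, 3.73 and 5.06 CPM. In KO_ASO Mcm2 measured 7.36, 4.99, 7.75 and 9.41 CPM and Mcm6 5.02, 4.57, 4.26 and 6.62 CPM, and both genes overlapped both PBS groups. Without KO_ASO replicate 4, Mcm2 lay below every WT_PBS sample and Mcm6 below every KO_PBS sample. The call for Mcm6 was lost without KO_PBS replicate 1 (adjusted P = 0.0509). That for Mcm2 was lost without WT_PBS replicates 2 or 3 or KO_PBS replicates 1, 2 or 4, with adjusted P values of 0.0518 to 0.0867, and with library totals alone as the scale (log2FC -0.51, adjusted P = 0.0865). The other subunits, Mcm3, Mcm4, Mcm5 and Mcm7, and Pcna, the sliding clamp of the polymerase, had log2FC values from -0.18 to 0.40 and adjusted P values of 0.309 or more. Mcm7 shares 18.1% and Pcna 19.1% of their transcript 50-mers with another gene of the annotation, so reads of those copies may be counted with them or lost.

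The subunits of ribonucleotide reductase, which makes deoxynucleotides, also split. Rrm1, its large subunit, had the highest level per kilobase of the 37 genes in WT_PBS (3.99 CPM per kilobase of exon). It measured 46.3, 42.1, 40.96 and 46.4 CPM in WT_PBS and 30.3, 35.9, 34.3 and 35.4 CPM in KO_PBS, with no overlap (log2FC -0.37 ± 0.08, adjusted P = 0.00487). With library totals alone as the scale its log2FC was -0.22 and it was no longer a DEG (adjusted P = 0.0736). Rrm2, the small subunit, whose protein is limited to S phase, measured 0.877, 1.04, 1.32 and 0.852 CPM in WT_PBS and 3.03, 2.66, 1.93 and 2.02 CPM in KO_PBS, with no overlap. Its log2FC was 1.23 ± 0.32 (adjusted P = 0.0181), and its call was lost without WT_PBS replicate 4 (adjusted P = 0.0613) or KO_PBS replicate 1 (adjusted P = 0.0637). In WT_ASO Rrm1 measured 46.9, 46.1, 45.2 and 42.1 CPM and Rrm2 0.916, 0.868, 0.638 and 1.47 CPM. In KO_ASO Rrm1 measured 43.4, 39.1, 36.2 and 39.0 CPM, above every KO_PBS sample, while Rrm2 measured 1.22, 1.66, 1.80 and 3.59 CPM. Tyms, which makes thymidylate, and Hells and Uhrf1, which keep DNA methylation through replication, were each higher in every KO_PBS sample than in any WT_PBS sample, with log2FC values of 0.85 ± 0.33, 0.84 ± 0.35 and 1.27 ± 0.55, and their adjusted P values of 0.105, 0.133 and 0.148 did not pass. Without KO_ASO replicate 4 Uhrf1 was a DEG (adjusted P = 0.0368).

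Mki67 encodes Ki-67, the coat protein of mitotic chromosomes used as a stain for cycling cells. It measured 0.965, 0.931, 0.337 and 0.652 CPM in WT_PBS, from 33, 25, 13 and 26 reads, and 7.06, 2.97, 2.51 and 2.59 CPM in KO_PBS, from 256, 105, 103 and 105 reads. The groups did not overlap, and KO_PBS replicate 1 was far above the other 3 KO_PBS samples. Its log2FC was 2.40 ± 0.75 (adjusted P = 0.0490), just inside the threshold. The call was lost without any 1 of the 8 samples compared, WT_ASO replicates 2 or 3 or KO_ASO replicate 3, with adjusted P values of 0.0547 to 0.161, and without the filter on low counts (adjusted P = 0.141). It was kept with the lowest value, 0.00811, without KO_ASO replicate 4. In WT_ASO Mki67 measured 0.164, 0.405, 0.668 and 1.70 CPM. In KO_ASO it measured 1.005, 1.02, 1.56 and 8.50 CPM, so that replicates 1 to 3 were under every KO_PBS sample and replicate 4 was the highest of the 16. Top2a, the topoisomerase that untangles sister chromatids, followed the same order, with 0.415 to 1.08 CPM in WT_PBS and 1.90 to 4.38 CPM in KO_PBS (log2FC 2.12 ± 0.82, adjusted P = 0.108). Without KO_ASO replicate 4 it was a DEG (adjusted P = 0.0114).

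Of the 6 cyclins and mitotic kinases tested, 2 rose and 1 fell, beside 7.43% and 5.12% of all genes. Ccnb2, a cyclin B that activates CDK1, was read 5, 6, 8 and 6 times in WT_PBS replicates 1 to 4 and 46, 38, 22 and 22 times in KO_PBS. These reads gave 0.146 to 0.223 CPM in WT_PBS and 1.27, 1.08, 0.536 and 0.542 CPM in KO_PBS, with no overlap (log2FC 2.22 ± 0.61, adjusted P = 0.0266). The call was lost without any 1 of the WT_PBS samples or KO_PBS replicates 1 or 2, with adjusted P values of 0.0541 to 0.0856. It was read 4, 5, 7 and 24 times in WT_ASO and 10, 12, 7 and 40 times in KO_ASO, and replicate 4 was the highest of each. Ccna2, cyclin A, rose from 0.259 to 0.552 CPM in WT_PBS to 1.17 to 2.59 CPM in KO_PBS (log2FC 2.34 ± 0.66, adjusted P = 0.0299), and its call was lost without any 1 of the WT_PBS samples or KO_PBS replicates 1 or 2, with adjusted P values of up to 0.0869, and without the filter on low counts (adjusted P = 0.0887). Ccna2 overlaps Exosc9 on the opposite strand. Ccnb1, the main mitotic cyclin B, did not pass the filter: it was read 0, 0, 1 and 0 times in WT_PBS, 0, 2, 3 and 3 times in WT_ASO, 7, 6, 8 and 6 times in KO_PBS, and 1, 1, 0 and 9 times in KO_ASO. It shares 23.4% of its transcript 50-mers with other genes, among them a pseudogene, so some of its reads may have been lost.

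Cdk1, the kinase of mitosis, measured 0.226 to 0.311 CPM in WT_PBS and 0.731 to 1.93 CPM in KO_PBS, with no overlap (log2FC 1.997 ± 0.76, adjusted P = 0.0988), and was a DEG without KO_ASO replicate 4 (adjusted P = 0.0232). Aurkb, the kinase of the chromosomal passenger complex, and Plk1, a kinase of spindle poles and kinetochores, had log2FC values of 1.36 ± 0.67 and 0.83 ± 0.53 with adjusted P values of 0.201 and 0.332. Aurka, the kinase of the centrosome, measured 6.35, 8.16, 5.01 and 5.89 CPM in WT_PBS and 2.73, 3.65, 3.19 and 2.93 CPM in KO_PBS, with no overlap, and fell (log2FC -1.02 ± 0.24, adjusted P = 0.0121). In WT_ASO it measured 6.05, 8.01, 10.9 and 5.09 CPM, and in KO_ASO 4.67, 5.40, 5.30 and 2.68 CPM. The KO_ASO sample with the highest Mki67, replicate 4, thus had the lowest Aurka of the 16. Per kilobase of exon the mean level in WT_PBS was 2.51 CPM for Aurka and 0.0750 CPM for Aurkb.

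Genes of the kinetochore and the spindle checkpoint all had positive values. Birc5, survivin of the passenger complex, was read 12, 8, 5 and 9 times in WT_PBS and 62, 23, 25 and 31 times in KO_PBS, and its lowest KO_PBS level, 0.610 CPM, was above its highest WT_PBS level, 0.351 CPM (log2FC 1.90 ± 0.59, adjusted P = 0.0439). It measured 0.131, 0.203, 0.273 and 0.556 CPM in WT_ASO and 0.353, 0.224, 0.450 and 1.57 CPM in KO_ASO. Cenpf, a kinetochore protein, was read 6, 5, 4 and 12 times in WT_PBS and 42, 26, 32 and 19 times in KO_PBS, with no overlap of the CPM values (log2FC 2.004 ± 0.63, adjusted P = 0.0458). It measured 0.0982, 0.0868, 0.243 and 0.750 CPM in WT_ASO and 0.380, 0.192, 0.519 and 1.18 CPM in KO_ASO. Both calls were close to the threshold. That for Birc5 was lost without any 1 of the WT_PBS samples, KO_PBS replicates 1, 2 or 4, WT_ASO replicate 3 or KO_ASO replicate 3, with adjusted P values of 0.0508 to 0.170. That for Cenpf was lost without any 1 of the WT_PBS samples, KO_PBS replicates 1, 2 or 3, WT_ASO replicate 3 or KO_ASO replicates 1 or 3, with adjusted P values of 0.0522 to 0.136. Without the filter on low counts neither was a DEG, with adjusted P values of 0.0620 for Birc5 and 0.0665 for Cenpf. Bub1, a checkpoint kinase, was read 2, 0, 0 and 1 times in WT_PBS and 15, 12, 16 and 11 times in KO_PBS, and 0, 2, 0 and 10 times in WT_ASO and 2, 1, 2 and 36 times in KO_ASO. With so few reads in WT_PBS no fold is given for it (adjusted P = 0.0701, and 0.00872 without KO_ASO replicate 4). Bub1b, the checkpoint protein BubR1, and Cenpe, the kinetochore motor, had log2FC values of 1.31 ± 0.47 and 1.76 ± 0.86 with adjusted P values of 0.0760 and 0.201, and Bub1b was a DEG without KO_ASO replicate 4 (adjusted P = 0.0269).

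The spindle genes held the gene with the smallest P value in this comparison. Kif11, the motor Eg5 that pushes spindle poles apart, measured 1.90, 2.31, 1.22 and 1.25 CPM in WT_PBS and 6.98, 3.99, 4.02 and 3.67 CPM in KO_PBS. No samples overlapped, and its log2FC was 1.49 ± 0.26 (adjusted P = 0.00145). In WT_ASO it measured 1.18, 1.27, 1.55 and 1.67 CPM and in KO_ASO 2.61, 2.40, 2.28 and 3.97 CPM. Kif20a, a motor of cytokinesis, rose from 0.552 to 0.931 CPM in WT_PBS to 1.39 to 2.40 CPM in KO_PBS (log2FC 1.16 ± 0.31, adjusted P = 0.0210), and its call was lost without WT_PBS replicate 4 (adjusted P = 0.0737) or KO_PBS replicate 1 (adjusted P = 0.0816). It shares 25.2% of its transcript 50-mers with the opposite strand of other genes, mainly Cdc23. Prc1, which bundles the central spindle, measured 0.380 to 0.602 CPM in WT_PBS and 1.42 to 3.61 CPM in KO_PBS (log2FC 2.12 ± 0.69, adjusted P = 0.0553), and was a DEG without KO_ASO replicate 4 (adjusted P = 0.00546). Prc1 overlaps 911 bases of Rccd1 on the opposite strand. Kif23 and Nusap1, of the midzone and the spindle, had log2FC values of 1.36 ± 0.59 and 0.90 ± 0.51 with adjusted P values of 0.144 and 0.277.

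Tpx2, the spindle protein that binds and activates Aurora A, measured 4.83, 3.46, 2.80 and 2.51 CPM in WT_PBS and 2.40, 1.64, 1.88 and 1.997 CPM in KO_PBS, with no overlap (log2FC -0.78 ± 0.25, adjusted P = 0.0544). It was a DEG without KO_ASO replicate 4 (adjusted P = 0.0352) and by DESeq2 (adjusted P = 0.0243). In WT_ASO it measured 6.74, 5.56, 4.19 and 3.47 CPM and in KO_ASO 6.19, 5.82, 4.91 and 3.31 CPM. Of the partners of the anaphase-promoting complex, Cdc20, its activator, measured 0.234 to 0.410 CPM in WT_PBS and 0.444 to 1.52 CPM in KO_PBS, with no overlap (log2FC 1.38 ± 0.49, adjusted P = 0.0760), and was a DEG without KO_ASO replicate 4 (adjusted P = 0.0451). Ube2c, its ubiquitin-conjugating enzyme, had a log2FC of 0.29 ± 0.36 (adjusted P = 0.654). Ube2c overlaps 592 bases of Tnnc2, a troponin gene with a mean of 279863.1 counts, on the opposite strand, so its level of 115.3 counts on average may hold reads of that gene.

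KO_ASO was compared with KO_PBS to ask what lowering Dnm2 changed in the knockout. It shares the KO_PBS samples with the comparison above. Tpx2 was a DEG that rose, at 1.64 to 2.40 CPM in KO_PBS and 3.31 to 6.19 CPM in KO_ASO, with no overlap (log2FC 1.36 ± 0.25, adjusted P = 0.00737). It was the only one of the 36 genes, where 0.802% of all genes tested rose, and it was a DEG in each of the 16 fits that left out 1 sample. Ccne2 was called as higher too without WT_PBS replicates 1 or 4 or WT_ASO replicates 2 or 3 (adjusted P = 0.0328 to 0.0494), and with the compared groups alone (adjusted P = 0.0395, where 0.382% of all genes rose). None of the 36 genes fell by edgeR (2.83% of all genes tested did so). By DESeq2 0 fell (4.83% of all genes did so), with no adjusted P value for 2 of the 36, Mki67 and Prc1. By edgeR 8 of the 36 had an unadjusted P value under 0.05 in either direction, a share near the 17.7% of all genes, and the median log2FC was -0.17. Every KO_ASO sample was above every KO_PBS sample in 3 genes, Tpx2, Ccne2 and Rrm1 (4.04% of all genes), and below in 0 (6.34% of all genes). Ccne2 had a log2FC of 0.71 ± 0.20 (adjusted P = 0.0553) by edgeR on all samples. DESeq2 called it (adjusted P = 0.0138), with 2.23% of all genes higher by DESeq2. Rrm1 had a log2FC of 0.21 ± 0.08 (adjusted P = 0.139). The genes with the lowest P values among those with negative values were Kif20a (log2FC -0.91 ± 0.30, adjusted P = 0.114), Kif11 (log2FC -0.73 ± 0.25, adjusted P = 0.124) and Cdc20 (log2FC -1.28 ± 0.49, adjusted P = 0.170).

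This comparison turned on KO_ASO replicate 4. Without it 6 genes were DEGs that fell, where 3.62% of all genes did so: Prc1 (log2FC -2.36 ± 0.51, adjusted P = 0.0169), Kif20a (log2FC -1.23 ± 0.30, adjusted P = 0.0275), Bub1b (log2FC -1.64 ± 0.42, adjusted P = 0.0342), Cdc20 (log2FC -1.90 ± 0.51, adjusted P = 0.0400), Kif11 (log2FC -0.94 ± 0.25, adjusted P = 0.0435) and Top2a (log2FC -2.01 ± 0.55, adjusted P = 0.0473). Tpx2 was again the 1 DEG that rose (log2FC 1.51 ± 0.24, adjusted P = 0.00348), where 1.84% of all genes did so. The median log2FC of the 36 genes was then -1.02 and 26 of them had an unadjusted P value under 0.05 (20.5% of all genes). Without the samples numbered 4 of both ASO1 groups 12 fell (4.09% of all genes) and 2 rose, Aurka and Tpx2 (2.43%). Leaving out KO_PBS replicate 1, the highest of its own group, moved the values the other way: no gene fell (1.22% of all genes did so), 3 had an unadjusted P value under 0.05 (12.9% of all genes) and the median log2FC was 0.03. The summed level of the 22 G2 and M phase genes without Aurka, Tpx2 and Ube2c, a set trimmed after their values were seen, was 22.9, 21.02 and 19.9 CPM in KO_PBS replicates 2 to 4 and 9.15, 8.41 and 11.1 CPM in KO_ASO replicates 1 to 3. The samples left aside, KO_PBS replicate 1 and KO_ASO replicate 4, had 41.8 and 47.6 CPM. In WT_PBS this sum was 6.54 to 9.01 CPM. With all 22 genes the sums lay closer, at 28.1 to 32.9 CPM in KO_PBS replicates 2 to 4 and 22.6 to 23.8 CPM in KO_ASO replicates 1 to 3. The trimmed set leaves out Aurka and Tpx2, whose values were positive in KO_ASO vs KO_PBS (log2FC 0.53 and 1.36), so it widens the gap. In the same comparison 4 of the 6 macrophage markers fell, with sums of 40.4 to 60.3 CPM in KO_ASO and 98.8 to 299.0 CPM in KO_PBS. Of the fibro-adipogenic markers Dcn fell, and their sum was 230.4, 261.6 and 263.6 CPM in KO_ASO replicates 1 to 3, below every KO_PBS sample, and 354.6 CPM in replicate 4. Myh8, of the differentiating myoblast genes, fell as well. The part of these markers in the cell cycle values was not tested.

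**Figure D4:**
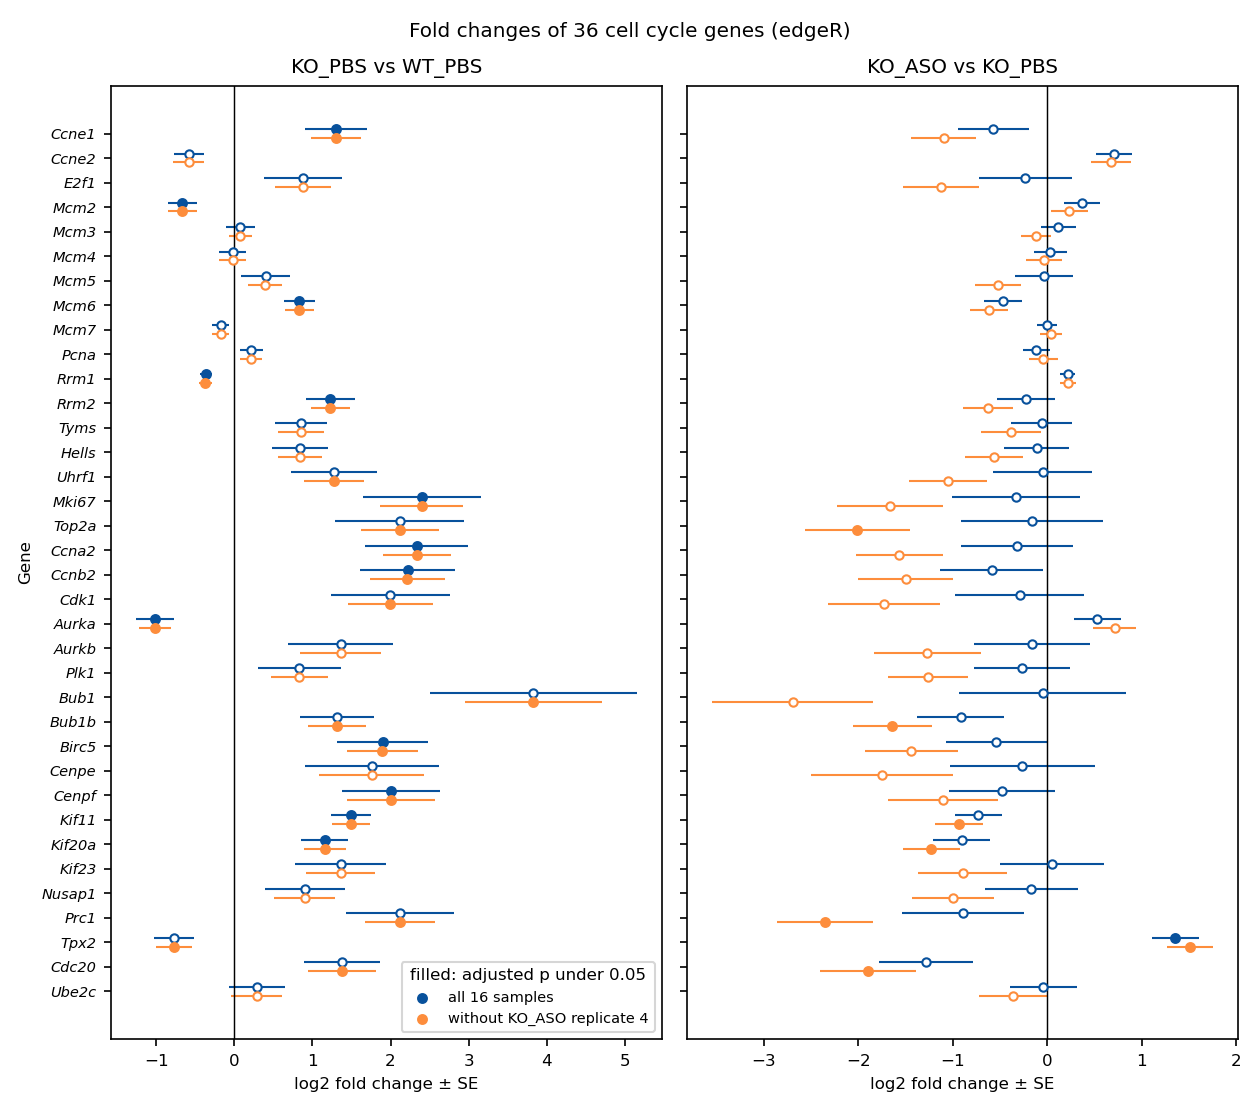
log2 fold change with its SE (horizontal axes, linear) of the 36 genes tested, for KO_PBS vs WT_PBS on the left and KO_ASO vs KO_PBS on the right, with all 16 samples (blue) and without KO_ASO replicate 4 (orange). Filled points have an edgeR adjusted P value under 0.05. On the right the orange points lie further to the left for most mitotic genes, and the filled ones are Top2a, Bub1b, Kif11, Kif20a, Prc1, Cdc20 and, to the right of 0, Tpx2.

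WT_ASO was compared with WT_PBS to ask what ASO1 did in wild-type muscle. By edgeR no gene of the 36 rose (0% of all genes tested) or fell (0.00668%), DESeq2, with no adjusted P value for Mki67 and Prc1, called 0 (0.127% of all genes were higher and 0.0936% lower), and 1 of the 36, Tpx2, had an unadjusted P value under 0.05, beside 6.45% of all genes (log2FC 0.55 ± 0.24, adjusted P = 0.756). The median log2FC was 0.06, and -0.17 without WT_ASO replicate 4. No gene separated the groups in either direction, beside 1.8% of all genes that were higher and 1.42% that were lower without overlap. WT_ASO replicate 4 stood above the other 3 samples of its group in many mitotic genes, for example in Mki67 at 1.70 CPM beside 0.164 to 0.668 CPM. That sample also had the highest summed Schwann cell markers of the 16, 74.9 CPM beside 25.7 to 31.2 CPM in WT_ASO replicates 1 to 3, and their part in its mitotic levels was not tested.

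KO_ASO was compared with WT_PBS to ask how far treated knockout muscle lay from untreated wild-type muscle. By edgeR no gene rose (0.0267% of all genes tested) or fell (0.0134%), and DESeq2, with no adjusted P value for Mki67 and Prc1, called 0 (0.455% of all genes were higher and 0.18% lower). The median log2FC was 0.73, 32 of 36 values were above 0 and 14 genes had an unadjusted P value under 0.05 (8.22% of all genes). Mki67 and Ccnb2 were higher in every KO_ASO sample than in any WT_PBS sample (2.38% of all genes) and no gene was lower throughout (3.01%). Mki67 had a log2FC of 2.07 ± 0.76 (adjusted P = 0.509). Without KO_ASO replicate 4 its log2FC was 0.74 ± 0.59 (adjusted P = 0.852), and over the 36 genes the median was 0.10, with 4 at an unadjusted P value under 0.05 (7.9% of all genes).

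KO_ASO was also compared with WT_ASO, which asks what the genotype changed among treated mice. By edgeR no gene rose (0.0401% of all genes tested) or fell (0.0334%), with 11 of 36 at an unadjusted P value under 0.05 (15.1% of all genes) and 5 of 36 without KO_ASO replicate 4 (12.2%). DESeq2, by which 1.12% of all genes were higher, called Kif11 (log2FC 0.98, adjusted P = 0.0222) and Rrm2 (log2FC 1.07, adjusted P = 0.0441) as higher. Kif11 had a log2FC of 0.98 ± 0.26 by edgeR (adjusted P = 0.125). The median log2FC was 0.69. It was 0.01 without KO_ASO replicate 4, 0.84 without WT_ASO replicate 4 (19 genes at an unadjusted P value under 0.05, with 18.4% of all genes) and 0.28 without both (9 genes, with 14.8%).

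The interaction, the difference between the effect of ASO1 in knockout and in wild-type mice, was tested in the same fit. By edgeR 0 of 36 genes were called, where 0.0602% of all genes were called with a positive value and 0.515% with a negative one, and 4 of the 36, no more than the 12.7% of all genes, had an unadjusted P value under 0.05: Ccne2 (1.02 ± 0.28 on the log2 scale, adjusted P = 0.116), Tpx2 (0.80 ± 0.35, adjusted P = 0.351), Cdc20 (-1.62 ± 0.72, adjusted P = 0.360) and Kif20a (-0.95 ± 0.44, adjusted P = 0.386). DESeq2 called Ccne2 (adjusted P = 0.0256), where 0.561% of all genes were called with a positive value, and edgeR called it without WT_ASO replicate 2 (adjusted P = 0.0387, where 0.0926% of all genes were). Without KO_ASO replicate 4 none was called by edgeR and 17 had an unadjusted P value under 0.05 (14% of all genes). This count rested on leaving out 1 of the high samples of the ASO1 groups: it was 1 (12.4%) without WT_ASO replicate 4 and 8 (13.1% of all genes) without both. The rise of Tpx2 with ASO1 was thus not shown to differ between the genotypes.

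Other genes of the cell cycle machinery were examined as 4 lists in KO_PBS vs WT_PBS, where 7.43% of all genes rose and 5.12% fell. Of 13 G1 cyclins, CDKs and CDK inhibitors 12 were tested, 2 rose and 0 fell, with a median log2FC of 0.08. Cdkn1a, the inhibitor p21 that halts the cycle, measured 9.03 to 35.7 CPM in WT_PBS and 74.1 to 88.7 CPM in KO_PBS (log2FC 2.18 ± 0.35, adjusted P = 0.00127), and Cdk6, a kinase of G1, rose as well (log2FC 0.76 ± 0.22, adjusted P = 0.0305). Of 18 Rb, E2F and DREAM factors 17 were tested, 3 rose (Rb1, E2f8 and E2f2), 1 fell (E2f6), and the median log2FC was 0.06. Rb1, the retinoblastoma protein that restrains E2F, had a log2FC of 0.68 ± 0.15 (adjusted P = 0.00847). E2f6, a repressor E2F, had a log2FC of -0.39 ± 0.09 (adjusted P = 0.00931). Of 33 further replication genes 32 were tested, none was a DEG by edgeR, 5 of the 32 had an unadjusted P value under 0.05, below the 27.3% of all genes, and the median log2FC was -0.05. Of 47 further mitotic genes 38 were tested, and 6 rose: Spc25, Ckap2l, Cks1b, Aspm, Ckap2 and Ect2. Their median log2FC was 1.09 and 33 of the 38 values were above 0. The summed level of the 47 genes overlapped between the groups, at 138.4 to 150.3 CPM in WT_PBS and 136.0 to 159.9 CPM in KO_PBS. Spc25, of the kinetochore complex that binds microtubules, had a log2FC of 1.59 ± 0.39 (adjusted P = 0.0135). The median of the mitotic list thus lay near that of the 36 genes, and the median of the replication list near that of all genes.

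In KO_ASO vs KO_PBS none of these 4 lists had a DEG by edgeR, with 3 of 12, 4 of 17, 3 of 32 and 1 of 38 genes at an unadjusted P value under 0.05 in the order above, beside 17.7% of all genes. The medians were 0.06, 0.09, 0.07 and -0.18 on the log2 scale. Cdkn1a measured 27.2, 57.4, 41.9 and 50.9 CPM in KO_ASO, below every KO_PBS sample (log2FC -0.89 ± 0.34, adjusted P = 0.174). Without KO_ASO replicate 4 the median of the mitotic list was -0.77, 18 of its 38 genes had an unadjusted P value under 0.05 (20.5% of all genes) and Ckap2l fell. E2f8 and Gins2 were then DEGs that fell and E2f6 and Rfc4 DEGs that rose, from the factor and replication lists.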

How the data were processed

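Per the labels, TRI Reagent was used for extraction and the library kit was a stranded one for mRNA. The authors deposited a table of raw counts, 1 value per Ensembl gene and sample. In the submitters' processing notes stand STAR 2.5.3a, HTSeq 0.6.1p1, Bowtie2 2.2.8, cutadapt 1.10 and GRCm38 (mm10). No annotation release and no strand setting for counting was found in them, so reads of genes that overlap on opposite strands may not have been told apart. All 29730 identifiers matched GENCODE for GRCm38, which gave symbols and coordinates, and promoter windows are RefSeq's (GRCm38.p6).

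Counts were tested with edgeR 4.0.16 under R 4.3.3: filterByExpr by group left 14960 genes and removed 14770, libraries were scaled by TMM, and the 4 group means were estimated together from all 16 samples by the robust quasi-likelihood method. Benjamini-Hochberg adjustment was made over all genes tested, with a threshold of 0.05. Each SE was obtained by dividing the absolute log2FC by the square root of its F statistic. DESeq2 1.42.0, other scalings, no filter, the compared groups alone, a replicate block and the loss of each sample were alternatives, and leaving out the samples numbered 4 of both ASO1 groups was chosen after seeing the data. The genes and lists were chosen with earlier results of these data known. All 37 genes are reported, with values per sample for Mki67 and, in each role, the 2 DEGs with the smallest P values; from each further list the 2 genes with the smallest P values could be named, and others are named only where a count of a few genes turned on them. Samples were taken to be separate mice, and otherwise P values measure technical spread. Counts of every pair of samples within a group differed beyond sampling noise (chi-square per gene of 21.7 or more), so no library was counted as a repeat of another. With TMM the median of all genes differed by -0.01 (log2) between KO_PBS and WT_PBS, and by 0.14 with library totals alone, and all changes given are on the TMM scale. Low counts limit precision: 22 of the 37 genes had a WT_PBS mean under 25 counts and 9 a mean under 10.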

Additional observations from a re-analysis of the deposited data

Results flagged for a closer look

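Single samples stood apart from the other 3 of their group, by the gap to the nearest sample over the range of the group, in 27 of 148 combinations of gene and group. Chance gives about 1 in 20 for independent, normally spread values, which low counts of related genes need not be. The ratio does not weigh the size of the gap, so Ccnb1 in WT_PBS replicate 3, at 0.0259 CPM, is among the 27. KO_ASO replicate 4 was the high sample in 14 of these, KO_PBS replicate 1 in 6 and WT_ASO replicate 4 in 3. Among the genes given by sample, KO_ASO replicate 4 stood apart for Ccne1 (0.941 CPM), Mki67 (8.50 CPM), Ccnb2 (1.39 CPM) and Birc5 (1.57 CPM), and for the summed level of the 22 G2 and M phase genes (59.5 CPM). KO_PBS replicate 1 stood apart for Mki67 (7.06 CPM), Birc5 (1.71 CPM) and Kif11 (6.98 CPM), and WT_ASO replicate 4 for Ccnb2 (0.667 CPM).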

How the results depend on the processing

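For KO_PBS vs WT_PBS the count of the 36 genes that rose, 10, was 19 without the samples numbered 4 of both ASO1 groups, an alternative chosen after seeing the data, 20 of 35 tested with the compared groups alone, 6 without the filter on low counts (3.14% of all genes), and 1 to 17 when each sample was left out in turn. The count that fell, 3, was 5 with DESeq2 (7.38% of all genes), 1 with library totals alone (1.74%, with 13% of all genes higher), and 2 to 4 when each sample was left out. For KO_ASO vs KO_PBS the count that rose, 1, was 2 with DESeq2 (2.23% of all genes), with the compared groups alone and without both samples numbered 4, and 1 to 2 when each sample was left out. The count that fell, 0, was 12 without both samples numbered 4 and 0 to 6 when each sample was left out. For KO_ASO vs WT_ASO DESeq2 gave 2 that rose (1.12% of all genes), where edgeR gave 0. For the interaction DESeq2 called 1 and the loss of single samples gave 0 to 1, where the fit to all samples gave 0. The summed level of the 37 genes, as log2 of KO_PBS over WT_PBS, was 0.10, with library totals alone 0.25, and as the mean of differences in log2(CPM + 1) 0.36, and for WT_ASO over WT_PBS it was 0.07 and with library totals alone 0.0191. DESeq2 gave no adjusted P value for 11 of the 36 genes in KO_ASO vs WT_ASO, 3 in the interaction and 2 in each of the other comparisons. No DEG changed the sign of its log2FC under the alternatives run, but when each sample was left out the median log2FC over the 36 genes ran from -1.02 to 0.03 in KO_ASO vs KO_PBS and from -0.17 to 0.25 in WT_ASO vs WT_PBS. The cause of these changes was not tested, beyond the smaller number of samples or genes in a fit.

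The replicate numbers were checked for pairing, and the data do not settle whether they pair the samples. Of 24 pairs with the same number 11 had correlated deviations above 0.1 (lowest -0.08). The highest value, 0.44, was that of WT_ASO and KO_ASO replicates 4. In all, 14 of 16 samples correlated best with a sample of their own number, which is a hint of pairing from the data and not the design. With the replicate block KO_PBS vs WT_PBS had 12 genes that rose (8.72% of all genes) and 5 that fell (6.8%). In KO_ASO vs KO_PBS 2 rose (1.32%), the median log2FC was -0.43 and 11 genes had an unadjusted P value under 0.05 (20.8%), and 1 was called in the interaction with a positive value (0.154%). The gene added in KO_ASO vs KO_PBS and in the interaction was Ccne2 (adjusted P = 0.0215 and 0.0446).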
